A study of Mus musculus with 6 samples.

Results

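The methylated DNA of mouse stem cells was compared with that of erythroblasts, the start and the end of the differentiation course the series covers. The comparison used the 2 libraries at these end points of 6 in the series, namely the MBD2-enriched libraries of Hematopoietic Stem Cell (HSC) and Erythroblast (ERY), each represented by the authors' list of peaks on mouse genome build mm9. Peaks on the 19 autosomes were taken, 83430 of 85797 in the HSC list and 27266 of 27839 in the ERY list. An HSC peak was called kept when it shared at least 1 bp with an ERY peak and lost otherwise. An ERY peak that shared no base with an HSC peak was called gained. The list of the intermediate stage was left out of this comparison.

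Both libraries are labelled C57BL/6 and female, with no genetic change and no drug. HSC were adult bone marrow cells sorted as lineage-negative, Sca-1-positive and c-kit-positive, a gate that is known to hold multipotent progenitors beside stem cells. For the erythroblasts the labels name neither tissue nor sort, since the protocol text covers the other cell types. The series holds no expression data, so neither label could be checked against marker genes. Each cell type has 1 enriched library, so no difference below has a replicate check and none was tested. Intervals in parentheses after shares are 95% exact binomial (Clopper-Pearson) intervals. They take each peak as independent and hold for counting error alone. Intervals of differences run from the lower limit of the first value minus the upper limit of the second to the reverse. They are wider than 95% intervals of a difference.

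Methylation of cytosine in CpG pairs is copied to the new strand at each cell division by a maintenance methyltransferase and is diluted where copying lags behind. Terminal erythroid differentiation in the mouse is known for a broad loss of DNA methylation while the cells go through their last divisions and the nucleus condenses. MBD2 holds methylated CpG pairs, so the pulldown reports dense methylated CpG far better than isolated sites. A peak is a stretch where such fragments piled up beyond the authors' threshold. A lost peak is therefore a stretch that no longer passed it, which is not the same as a stretch without methylation.

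Erythroblasts kept a minority of the stem cell peaks and added very few of their own. Of 83430 autosomal HSC peaks, 57460 were lost (68.9%) and 25970 were kept (31.1%, interval 30.8 to 31.4%). Only 1281 of 27266 ERY peaks were gained (4.7%, interval 4.45 to 4.96%), and the other 25985 shared at least 1 bp with an HSC peak. Lost HSC peaks thus outnumbered gained ERY peaks by 44.9 to 1. The ratio was 17.5 to 1 when 50% of both peaks had to be shared, and 10.1 to 1 in the wider 50% of each list. The last value is lowered by construction, since a counterpart below the width limit no longer counts. The ERY list was 32.7% as long as the HSC list, and overlaps were mostly 1-to-1. The share kept could therefore hardly lie far above 32.7%, and most HSC peaks had to count as lost. The read depth of neither library is known. How far list length or a difference in sensitivity sets the share and the ratio was not tested.

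Most of the bases covered in HSC and not in ERY lay in lost peaks. HSC peaks covered 67.5 Mb of the autosomes and ERY peaks 22.5 Mb, and 19.2 Mb were covered by both. Lost peaks held 42.7 Mb of the HSC total. Kept peaks had a further 5.71 Mb outside the ERY peaks that overlapped them. Whole lost peaks therefore made up 88.2% of the bases that were covered in HSC and not in ERY. An ERY list 32.7% as long as the HSC list, with mostly 1-to-1 overlaps, favours a high value here. On the ERY side, gained peaks held 0.879 Mb, and a further 2.45 Mb of shared ERY peaks lay outside the HSC peaks. More ERY-only bases thus lay in shared peaks than in gained peaks. Those in shared peaks include shifts of whole peaks. Both edges moved to higher coordinates in 23.2% of 1-to-1 pairs and to lower ones in 23.9%. How much of these bases reflects imprecise peak edges was not tested.

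The overlapping peaks of both cell types mostly had close centres, which the rule of overlap favours by its choice of pairs. The 25970 kept HSC peaks formed 26381 overlapping pairs with ERY peaks, and 24875 of these were 1-to-1, which took in 95.8% of the kept HSC peaks. The centre of the ERY peak lay a median of 83 bp from that of its HSC partner. In 58.0% of the pairs the centres were within 100 bp and in 92.9% within 250 bp, and in 8 pairs they were more than 1000 bp apart. The signed shift had a median of -1 bp, with 5th and 95th percentiles of -222 and 215 bp, so the displacement had no preferred direction along the chromosome.

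The shared ERY peaks were on the whole a little narrower than their HSC partners. The pairs hold the wider part of the HSC list, since kept HSC peaks had a median of 864 bp and lost ones 706 bp. In the full lists the most common width was greater in ERY (825 to 850 bp) than in HSC (700 to 725 bp). The difference within pairs thus depends on which HSC peaks have a partner. In 1-to-1 pairs the median width was 860 bp in HSC and 792 bp in ERY, and the ERY peak was the narrower of the pair in 63.4% of pairs and the wider in 36.4%. The median difference was -83 bp, with quartiles of -262 and 78 bp. The ERY peak lay wholly inside the HSC peak in 36.6% of pairs, and the reverse held in 16.2%. In the remaining pairs both edges moved the same way, to higher coordinates in 23.2% and to lower ones in 23.9%. Large changes were rare. The ERY peak had less than 50% of the HSC width in 1102 pairs (4.43%) and more than 2 times that width in 138 (0.555%).

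**Figure D1:**
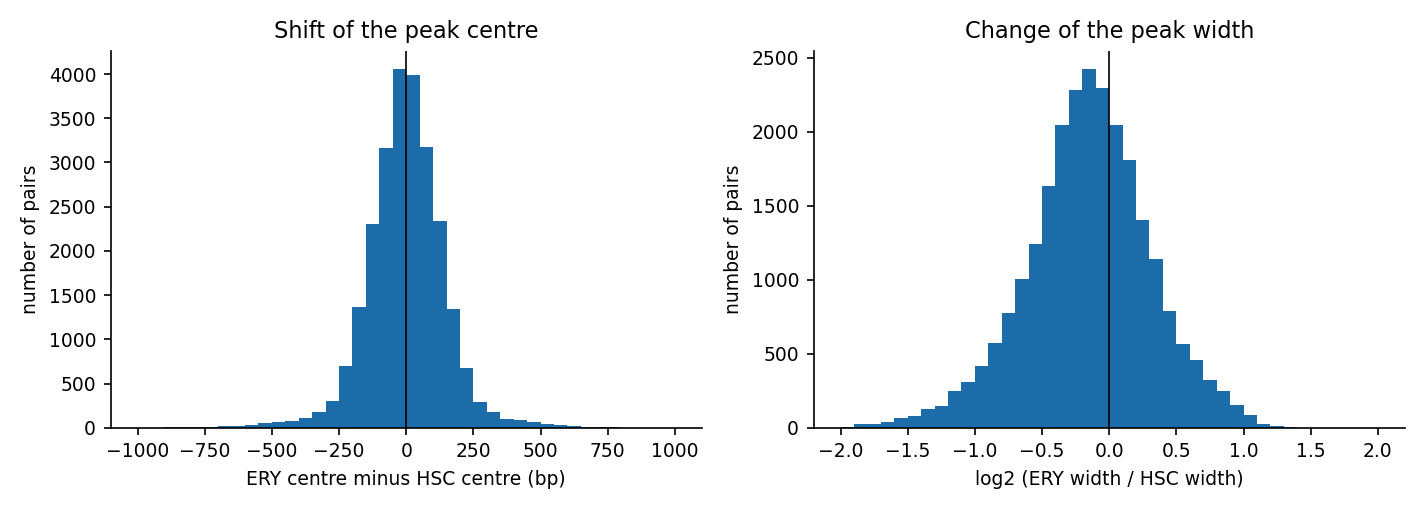
Distance between peak centres (left, ERY minus HSC, in bp, bins of 50 bp between -1000 and 1000 bp) and log2 ratio of widths (right, ERY over HSC, bins of 0.1 between -2 and 2) in the 24875 1-to-1 pairs; bars give the number of pairs. The centres scatter evenly around 0, with a median shift of -1 bp, and the width ratios lean to the left of 0, where the ERY peak is the narrower one.

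The ERY peak was most often the narrower one in pairs with wide HSC peaks. Among pairs in the lowest quartile of HSC width (260 to 689 bp), the median was 573 bp in HSC and 706 bp in ERY, and the ERY peak was narrower in 23.0% of pairs. In the highest quartile (1089 bp and above), the medians were 1325 and 936 bp, and the ERY peak was narrower in 91.1%. Sorting by either width selects its own extremes, so the same pairs were also sorted by ERY width. The ERY peak was then narrower in 81.1% of pairs of the lowest ERY quartile and in 56.8% of the highest. The widths of partners were correlated across the 24875 pairs with Pearson's r of 0.536 on the log2 scale, which is a description across peaks that share their libraries.

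Splitting and joining were uncommon and balanced. There were 392 HSC peaks with 2 or more ERY peaks over them, 17 of them with 3 or more, and the median width of the 392 was 1936.5 bp. Conversely, 391 ERY peaks spanned 2 or more HSC peaks, 4 of them 3 or more, with a median width of 1220 bp.

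Few peaks lay at the edge of the 1 bp rule. In all, 65 kept HSC peaks shared fewer than 50 bp with the ERY list, the least being 2 bp, while 118 lost HSC peaks had an ERY peak no more than 50 bp away. On the other side, 8 gained ERY peaks had an HSC peak within 50 bp. Most overlaps were deep. A median of 83.1% of a kept HSC peak was covered, and 94.2% of kept HSC peaks were covered over at least 50% of their length. A shared ERY peak was covered to a median of 93.2%. A stricter rule that asked for 50% of both peaks of a pair raised the gained ERY peaks from 1281 to 3402 and lowered the share of ERY peaks with an HSC counterpart from 95.3 to 87.5%.

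Wide HSC peaks were kept far more often than narrow ones. Kept HSC peaks had a median width of 864 bp (quartiles 691 and 1098) and lost ones 706 bp (562 and 873). The share kept climbed through all 12 width classes, from 5.71% (interval 4.85 to 6.67%) of 2608 peaks under 400 bp to 28.4% of the 13502 peaks of 700 to 800 bp. It reached 46.4% at 1000 to 1250 bp, 67.0% at 1500 to 2000 bp and 83.4% (80.5 to 85.9%) of 775 peaks at 2000 to 3000 bp. Of the 122 HSC peaks of 3000 bp or more, 115 were kept (94.3%, interval 88.5 to 97.7%) and 7 were lost. A wide peak reaches a shared base more easily than a narrow one. When at least 50% of the HSC peak had to be covered, the difference between the median widths of kept and lost peaks was 135 bp, against 158 bp at 1 bp.

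ERY peaks showed a shallower slope of the same sign. Those under 400 bp lay over an HSC peak in 83.8% of 562 cases (interval 80.5 to 86.8%), those of 800 to 900 bp in 96.9% of 6013, and all 36 of 3000 bp or more did (90.3 to 100%). Gained ERY peaks had a median width of 682 bp (quartiles 559 and 796) and the others 794 bp (670 and 907).

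The 2 lists differed in the shape of their width distributions. HSC widths had a main mode at 700 to 725 bp (3577 peaks) and a second, narrower one at 425 to 450 bp (2439 peaks, against 2138 at 475 to 500 bp). ERY widths had a single main mode at 825 to 850 bp (1698 peaks) and a small one at 350 to 375 bp (240 peaks, against 153 at 375 to 400 bp). For every 100 HSC peaks of 800 to 900 bp there were 56.7 ERY peaks of that width, but 11.7 at 400 to 500 bp and 21.5 at 1000 to 1250 bp. The narrow HSC mode was also visible in the share kept. That share was 12.8% at 400 to 425 bp, rose to 23.6% (interval 21.9 to 25.4%) of 2268 peaks at 450 to 475 bp, and was lower again at 475 to 500 bp, with 19.5% (17.8 to 21.2%) of 2138. The ERY partners of HSC peaks of 400 to 475 bp had a median width of 659.5 bp, below the 794 bp of all shared ERY peaks, and 22.0% of them were under 500 bp. These values lie on a trend with HSC width and are not particular to the narrow mode. Partners had a median of 633 bp (24.8% under 500 bp) at 300 to 400 bp and 698 bp (14.2%) at 475 to 550 bp. Which step gave the narrow mode cannot be told from 3-column lists.

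**Figure D2:**
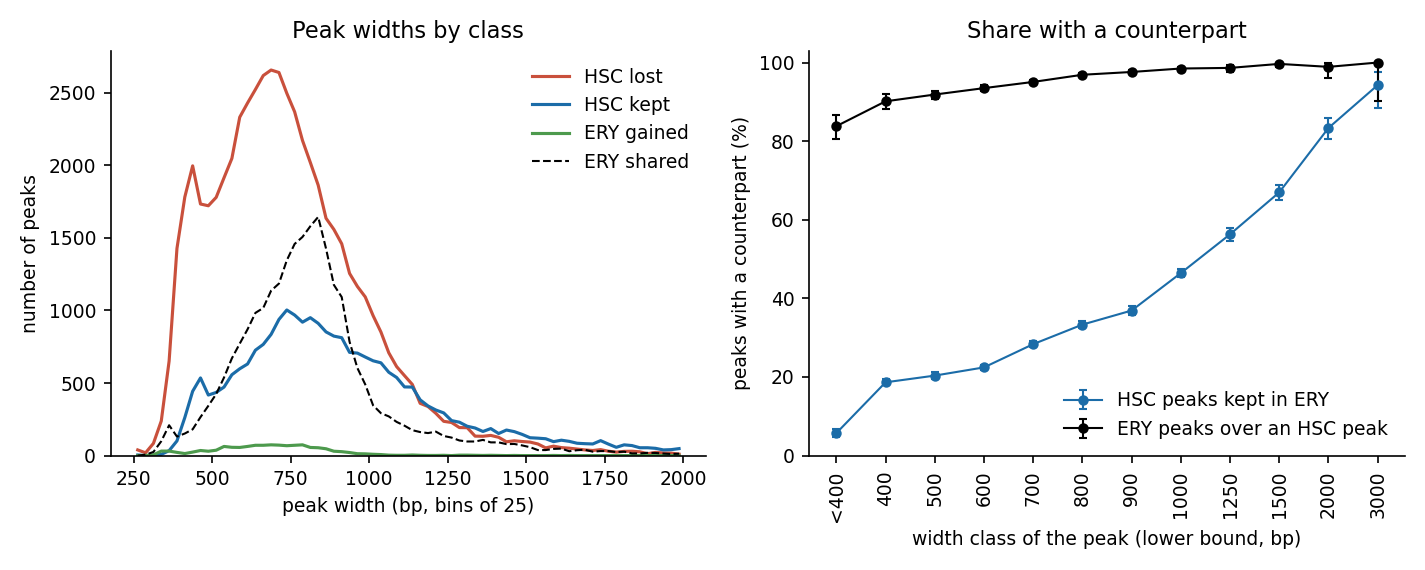
Left, number of peaks by width (bp, bins of 25 bp) for HSC peaks lost and kept and ERY peaks shared and gained; right, share of peaks with a counterpart in the other list (percent) by width class, with 95% exact intervals. Lost and kept HSC peaks both show a second mode below 500 bp, and the share kept rises from 5.71% under 400 bp to 94.3% at 3000 bp and above.

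The 3 widest kept HSC peaks ranged from one matched by an ERY peak of similar width to one left mostly uncovered. Coordinates are 1-based. The widest kept HSC peak, chr11:3080495-3100291, spanned 19797 bp, and a single ERY peak of 19871 bp at chr11:3080553-3100423 matched it almost base for base. The next, chr9:3021797-3033340, spanned 11544 bp in HSC. Its ERY counterpart was a single peak of 1380 bp, chr9:3031488-3032867, which lay inside it and left the rest of it uncovered. Both lie near the start of their chromosome, within 80543 and 21996 bp of its first peak. How uniquely the reads align there is not known, so these examples may not stand for wide peaks elsewhere. The next widest, chr4:141027162-141035791 (8630 bp), was split into 3 ERY peaks that together covered 94.5% of it.

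Lost HSC peaks could also be wide, up to 5279 bp. Those ranked 6, 7 and 9 by width among all lost peaks were chr8:117312324-117315457 (3134 bp), chr11:96204947-96208016 (3070 bp) and chr16:94483673-94486540 (2868 bp). The nearest ERY peaks were 1531, 10070 and 2525 bp away. Another HSC peak stood 1246, 905 and 2310 bp from each. The gained ERY peaks ranked 4, 5 and 6 by width were narrower, in a class that reached 2373 bp. They were chr6:115741818-115743404 (1587 bp), chr12:89330248-89331698 (1451 bp) and chr2:130985235-130986650 (1416 bp). The first stood only 63 bp from an HSC peak of 671 bp, and the others 42378 and 4589 bp from the nearest one.

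The pairs with the greatest change of width were far more extreme on the side of shrinkage. After the chr9 domain above, where the difference was -10164 bp, came chr9:3015016-3020862, of 5847 bp in HSC and 1458 bp in ERY (chr9:3015066-3016523). This pair also lies near the start of chr9, and the same limit holds for it. The HSC peak chr1:34330539-34334655, of 4117 bp, had an ERY partner of 742 bp at chr1:34331284-34332025. In the other direction, the HSC peak chr8:73393611-73394385 (775 bp) faced an ERY peak of 1918 bp, chr8:73392347-73394264. The HSC peak chr7:134258438-134258883 (446 bp) faced one of 1561 bp, chr7:134257456-134259016, and chr15:93132063-93132458 (396 bp) faced one of 1388 bp, chr15:93131237-93132624. The greatest widening was thus 1143 bp.

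Clustered HSC peaks were kept more often than isolated ones. With another HSC peak less than 250 bp away, 41.7% of 5505 peaks were kept (interval 40.4 to 43.0%). The share was 33.4% at a spacing of 1000 to 2000 bp, 28.7% at 5000 to 10000 bp and 26.6% of 1316 peaks (24.2 to 29.1%) whose nearest neighbour was 100000 bp or more away. Clustered peaks were also wider, with a median of 809 bp in the closest class and 651 bp in the most isolated one. Within quartiles of HSC width the fall was limited to short distances. In the widest quartile (943 bp and above) it went from 60.6% (58.3 to 62.8%) under 250 bp to 45.5% (43.9 to 47.2%) at 5000 to 10000 bp, and it was 48.8% (39.9 to 57.8%) beyond 100000 bp. In the narrowest quartile (593 bp and below) the same classes had 22.0%, 16.7% and 19.4%. Close HSC peaks can also count as kept together because a single ERY peak spans both. This was so for 396 neighbours less than 1000 bp apart. How far it raises the shares of the closest classes was not tested.

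**Figure D3:**
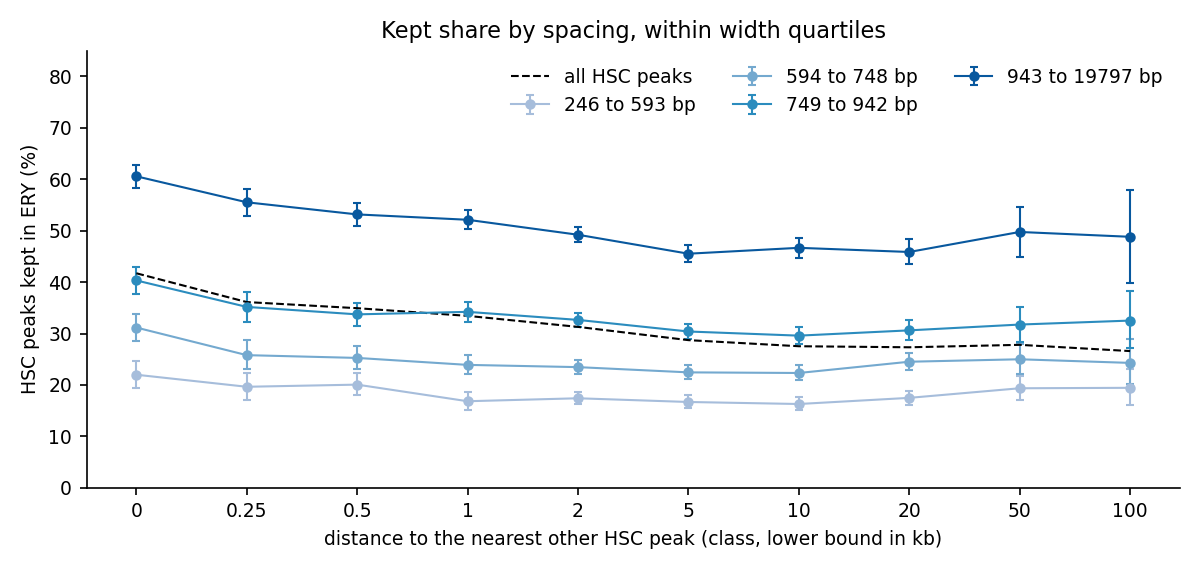
Share of HSC peaks kept in ERY (percent) by distance to the nearest other HSC peak (classes, lower bound in kb), for the 4 quartiles of HSC width (solid lines, 95% exact intervals) and for all HSC peaks (dashed line). Width sets the level of each line, from about 16.3% to 60.6%, and within a quartile the share is highest for peaks less than 250 bp apart. Close HSC peaks that a single ERY peak spans were not taken out.

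Neighbouring HSC peaks tended to share their outcome, most clearly over short distances. After a kept peak, the next HSC peak less than 1000 bp away was kept in 46.7% of 3464 cases (interval 45.0 to 48.4%). After a lost peak the share was 33.7% of 5677 (32.5 to 35.0%). The difference of 12.9 points fell to 5.88 points at 1000 to 5000 bp, 3.82 points at 5000 to 20000 bp and 1.49 points at 20000 to 100000 bp. It was present at the shortest distance in each width quartile of the next peak, with 17.2 points in the narrowest and 11.1 in the widest. From 20000 bp on, the intervals of the shares after kept and after lost peaks overlapped, which does not show that no difference remains. A single ERY peak that spans both neighbours makes both count as kept, which was so for 396 neighbours less than 1000 bp apart. Without them the share after a kept peak was 39.8% of 3068, and the difference was 6.07 points in place of 12.9. All of the removed cases were kept after a kept peak, so the difference could only fall, by construction.

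Runs of consecutive peaks with the same outcome are given as a description, since their length depends on the share kept. The lost HSC peaks fell into 16984 runs with a mean length of 3.38 peaks, of which 804 held 10 or more and 33 held 20 or more. The kept peaks fell into 16978 runs with a mean of 1.53 peaks, and 5 of these held 10 or more. The longest lost run, chr9:47036962-47781974, held 38 HSC peaks over 745 kb with a median width of 678 bp. In the whole of it ERY had 2 peaks, both gained, so 27151 bp of HSC peaks faced 1468 bp of ERY peaks with no base in common. The next was chr4:124822549-125284305 with 29 HSC peaks and 1 gained ERY peak. Of the 5 runs of 28 peaks, the first by chromosome and position was chr8:25089272-25761542, also with 1 gained ERY peak.

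The longest kept run, chr12:72246182-72420290, held 12 HSC peaks over 174 kb with a median width of 754.5 bp, close to that of all HSC peaks. ERY had 12 peaks in it, 1 of them gained. The next, chr14:55235254-55331213, held 11 HSC peaks with a median width of 1202 bp and 13 ERY peaks. Of the 3 runs of 10 peaks, the first was chr4:149023306-149063559. It spanned 40.3 kb, with 10 ERY peaks, none of them gained.

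**Figure D4:**
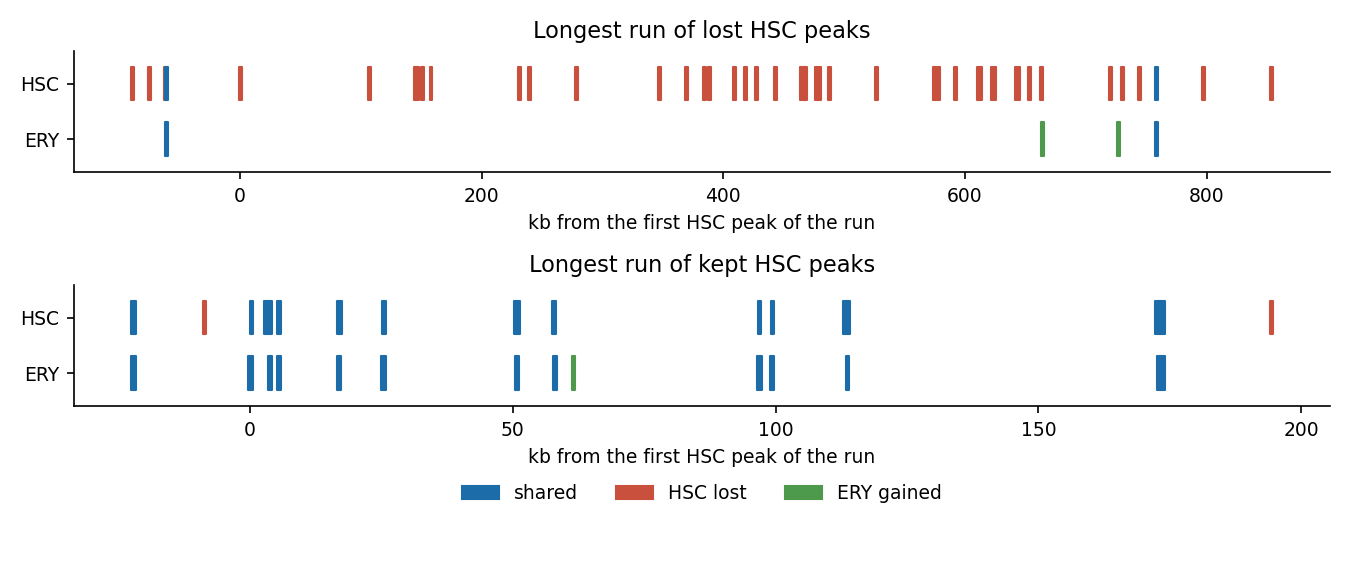
Peaks of HSC and ERY along the longest run of lost HSC peaks (top, 38 peaks over 745 kb) and the longest run of kept HSC peaks (bottom, 12 peaks over 174 kb), with flanks; the x axis is kb from the first HSC peak of the run, and narrow peaks are drawn at a minimum width so that they can be seen. The lost run holds 2 ERY peaks, both gained, while the kept run holds 12 ERY peaks, 1 of them gained.

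Megabases kept different shares of their HSC peaks, measured on few peaks each. Among 1436 windows of 1 Mb with at least 20 HSC peaks, which held 86.8% of the HSC peaks, the median share kept was 30.0% (quartiles 24.3 and 36.3%) and the extremes were 2.33% and 62.5%. The standard deviation was 8.90 points, which includes counting error. A window held a median of 43 HSC peaks, and the 95% interval of its share spanned a median of 27.7 points. The share calculated for each window from the widths of its peaks alone ranged from 21.5 to 46.4%, with a standard deviation of 3.05 points and no counting error, and its correlation with the observed share over the 1436 windows had an r of 0.426. In 73 windows the 95% interval lay wholly below the genome-wide 31.1%, and in 75 wholly above. With this many windows, some intervals miss the overall share through counting alone.

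The window that kept least was chr9:47000001-48000000, which holds the longest lost run, with 1 of 43 HSC peaks kept (interval 0.0589 to 12.3%). It was followed by chr9:87000001-88000000 with 1 of 21 (0.12 to 23.8%) and chr2:115000001-116000000 with 1 of 20 (0.127 to 24.9%). From their widths alone the shares would have been 27.2, 25.3 and 22.4%. The windows that kept most were chr4:146000001-147000000 with 15 of 24 (62.5%, interval 40.6 to 81.2%), chr9:3000001-4000000 with 18 of 30 (60.0%, 40.6 to 77.3%) and chr7:6000001-7000000 with 25 of 43 (58.1%, 42.1 to 73.0%). Widths alone gave 38.7, 33.8 and 37.6% for these. The window at the start of chr9 thus kept most of its peaks although its 2 widest shared domains shrank the most. In 42 windows with HSC peaks there was no ERY peak at all, the fullest of them being chr16:63000001-64000000 with 13 HSC peaks.

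Peak-rich megabases kept a larger share of their peaks. In windows with 80 or more HSC peaks 34.9% (interval 34.3 to 35.5%) of 21060 peaks were kept, with a median width of 808 bp. In windows with 20 to 39 the share was 28.6% (28.0 to 29.3%) and the median width 717 bp. Widths alone gave 34.2 and 29.3%, a smaller difference in the same direction. What lies behind the remainder was not tested. In the sparsest windows, with 1 to 9 HSC peaks, 29.5% (27.7 to 31.4%) of 2325 peaks were kept, above the 25.9% that their median width of 658 bp and its spread would give.

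The autosomes differed little. The share kept ranged from 28.6% on chromosome 6 (interval 27.3 to 30.0%) and 28.8% on chromosome 1 (27.6 to 30.0%) to 32.9% on chromosome 10 (31.7 to 34.3%) and 33.2% on chromosome 5 (32.1 to 34.4%), with a standard deviation of 1.47 points over the 19. When each autosome was given the width mix of all HSC peaks, the range narrowed to 29.2 to 32.4%, still lowest on chromosome 6 and now highest on chromosome 10, and the standard deviation to 1.07 points. Chromosome 8 had the widest HSC peaks, with a median of 770 bp, and went from 30.6 to 29.3%, while chromosome 13, with the narrowest at 722 bp, went from 30.3 to 31.8%. Across the 19 autosomes the share kept correlated with the density of HSC peaks (r of 0.719) and with their median width (r of 0.713), as a description of chromosomes within the same 2 libraries.

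**Figure D5:**
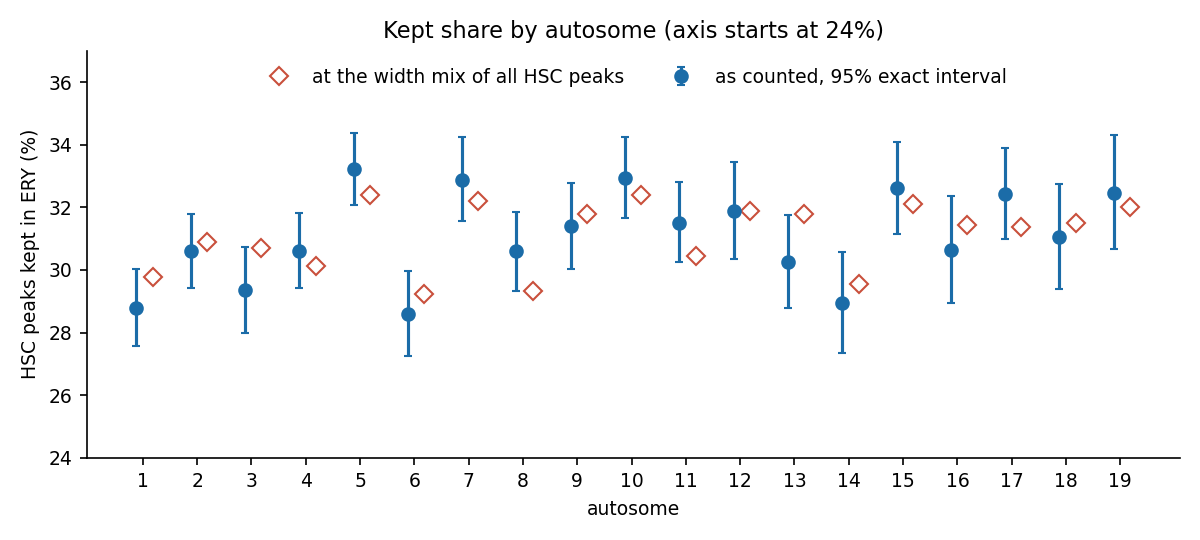
Share of HSC peaks kept in ERY (percent) on each autosome, as counted (filled circles, 95% exact intervals) and recalculated with the width mix of all HSC peaks (open diamonds); the axis starts at 24%. Chromosomes 1, 6 and 14 lie lowest and chromosomes 5, 7 and 10 highest as counted, and the recalculated values lie between 29.2 and 32.4%.

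The distal ends were dense in peaks, while the share kept differed little between the ends and the middle of the autosomes. Over the distal 10 Mb there were 61.0 HSC and 20.4 ERY peaks per Mb, against 32.7 and 10.6 between the ends. HSC peaks there were kept in 32.3% of cases (interval 31.5 to 33.2%), against 30.9% (30.5 to 31.2%) between the ends and 31.4% (30.2 to 32.7%) in the proximal 10 Mb. The distal share was above that between the ends on 14 of 19 autosomes. Distal peaks were wider, with a median of 789 bp against 744 bp, and among HSC peaks of the middle 50% of widths the distal minus middle difference was -0.961 points (-2.61 to 0.708). The proximal share was above that between the ends on 8 of 19 autosomes, with differences from -5.30 points on chromosome 8 to 11.8 points on chromosome 19. These 10 Mb kept 43.7% on chromosome 7 and 41.9% on chromosome 19, against 32.8 and 30.1% between the ends of those chromosomes, but 25.2% against 30.5% on chromosome 8. Those chromosomes are extremes among the 19, and no intervals were calculated for them.

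The gained ERY peaks occurred on all 19 autosomes, in 836 of the 2369 megabases with an ERY peak. The nearest HSC peak was a median of 7467 bp away (quartiles 2331 and 21762 bp), and within 500 bp for 92 of the 1281. The nearest HSC peak was itself kept in 33.9% of cases (interval 31.3 to 36.5%), against 31.1% of all HSC peaks. In comparison, the nearest ERY peak to a lost HSC peak was a median of 19313.5 bp away, in a list with fewer peaks.

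Gained peaks made up a larger part of the ERY list where HSC peaks were sparse. The definition favours this, since an ERY peak has fewer HSC peaks to overlap in such windows. Gained peaks were 121 of 809 ERY peaks in windows with 1 to 9 HSC peaks and 219 of 7560 (2.90%) in windows with 80 or more. ERY peaks with another ERY peak less than 250 bp away were gained in 1.85% of 971 cases (interval 1.10 to 2.91%) and those 100000 bp or more from the next in 6.39% of 2834 (5.51 to 7.35%). The median ERY widths in these classes were 817 and 705 bp, and the part of width and of HSC peak density in the gained share was not tested. By autosome the gained share ran from 2.78% on chromosome 16 (interval 1.81 to 4.08%) to 7.80% on chromosome 14 (6.18 to 9.67%). Over the 19 autosomes it was lower where more HSC peaks were kept (r of -0.624).

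Consecutive gained peaks occurred in places. Of the 1281, 985 had no other gained peak next to them in the ERY list, a number that depends on the gained share of 4.7%. There were 131 runs of 2 or more and 25 of 3 or more, and the longest held 5. The first of these, chr7:32864074-34602240, stretched over 1738 kb, and the other, chr11:31353182-31694180, over 341 kb, with 11 and 5 lost HSC peaks between the gained ones. The megabase with the most gained peaks was chr14:54000001-55000000, where 7 of 14 ERY peaks were gained and 7 of 27 HSC peaks kept. It lies directly before the megabase on chromosome 14 that holds one of the longest kept runs. The next, with 6 gained peaks each, were chr1:172000001-173000000 (15 ERY peaks), chr3:116000001-117000000 (30), chr8:87000001-88000000 (27) and chr14:51000001-52000000 (11). These runs and megabases of gained peaks were chosen after their values were seen.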

How the data were processed

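MBD2-enriched DNA (225 to 540 ng per library, per the labels' protocols) was read on the Illumina platform in single reads of 36 bp. The submitters' processing notes name build mm9. For each cell type the authors deposited 1 list, which its file header marks as a table browser query, with 3 columns (chromosome, start, end) and no height, score or p-value. Aligner, peak caller and threshold, and whether the supernatant served as control, are not stated in the labels or headers used here. Library depths are unknown, and no interval rests on read numbers.

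Autosomal peaks of the HSC and ERY lists were compared at 1 bp of overlap. Neither list had peaks that overlapped each other. Distances are the bases between peaks, and windows of 1 Mb take a peak by its centre. Shares from widths alone give each peak the kept share of its HSC width decile, and width-standardised shares weight each autosome's deciles equally. The chromosome ends are those of the outermost peaks. With 1 library a side no test was run. The regions named were 3 of the widest peaks of each class (ranks in the text, leaving out lost ranks 1 to 5 and 8 and gained ranks 1 to 3, which stand in the series-wide results), the 3 pairs with the greatest change of width in each direction, the 3 longest runs and the 3 highest and lowest windows. These rules, the peak set and the alternatives were chosen with earlier results of these data known.

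Python 3.11.15, numpy 2.4.6, pandas 2.3.3, scipy 1.17.1 and matplotlib 3.10.9 were used. The overlap code was tested on simulated data and gave the same counts as bedtools 2.31.1 on the deposited lists (25970 kept HSC peaks). The gene and promoter tables used for names are on GRCm38, a different build, so the planned comparisons of gene positions, gene lists, CpG and GGAA content were not run and no sequence is printed.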

Additional observations from a re-analysis of the deposited data

How the results depend on the processing

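No paired analysis was possible because each cell type has 1 library. Of 145 alternative values, 124 stayed inside the interval of their main value (or within 1.5 times for counts), 20 moved and 1 reversed. The intervals of differences are wide by the way they were made, which favours staying inside. Most of the 124 come from leaving out 1 autosome, where all 19 values of each result so treated stayed. Each of those shares most of its peaks with the main value and could hardly move, so the 124 does not measure robustness. The reversal is the distal minus middle share kept, 1.45 points over all HSC peaks (interval 0.249 to 2.66) and -0.961 points in the middle 50% of widths (-2.61 to 0.708, which includes 0). With 50% of the peak covered it was 0.888 points (-0.294 to 2.08). The main shares are 31.1% of HSC peaks kept and 95.3% of ERY peaks sharing at least 1 bp with an HSC peak. They became 29.3 and 94.7% with at least 50% of the peak covered, 28.6 and 87.5% with 50% of both peaks (3402 gained), and 33.2 and 95.6% within 500 bp. Joining peaks within 500 bp first gave 31.8% kept. The wider 50% of each list gave 25.3 and 77.3%, with 31253 lost and 3105 gained, by construction, since a counterpart below the width limit no longer counts. Against the full other list, an alternative chosen after seeing the data, the wider 50% gave 41.3 and 97.5%. The difference in median width of kept and lost HSC peaks was 158 bp, then 135 bp (50% covered) and 150 bp (within 500 bp). That of shared and gained ERY peaks was 112 bp, then 83 bp (50% covered). The share kept under 250 bp minus that at 20000 bp or more was 14.4 points, then 10.5 (50% covered) and 8.32 (middle 50% of widths). Neighbour differences without spanned pairs, added after seeing the data, are given with that result. Where no construction is named, the cause was not tested. Leaving out each of the 19 autosomes in turn gave 31.0 to 31.3% kept, 95.2 to 95.4% of ERY peaks shared, 53173 to 55684 lost, 1175 to 1256 gained, and width differences of 155 to 160 bp and 109 to 115 bp. Alternatives on gene windows and sequence content were not run.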
